A study of Macaca mulatta with 20 samples.

Results

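Integrins, cadherins, protocadherins, claudins and connexins are the membrane proteins by which cells hold on to the matrix and to each other. In the corpus luteum of the rhesus macaque, 89 such genes could be measured among the 14132 genes that the array annotation names by 1 symbol per probe set. They were chosen by name, as every symbol that starts as an integrin subunit, a numbered cadherin, a protocadherin, a numbered claudin or a connexin of the A, B or C group. Each gene was read from 1 probe set, chosen for the highest mean of its log2 values over all 20 arrays. The 89 comprised 10 integrin alpha subunits, 8 integrin beta subunits, 20 cadherins, 20 protocadherins, 17 claudins and 10 connexins. A further 4 match by prefix and are not integrin subunits: ITGB1BP1, ITGB1BP2 and ITGB3BP, which bind integrin tails or were named for it, and ITGBL1, a secreted protein with repeats like those of integrin beta subunits.

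The study asked what chorionic gonadotropin does to the primate corpus luteum in a simulation of early pregnancy. Female macaques received recombinant human chorionic gonadotropin (hCG) into muscle from luteal day 9 onwards, in doses that climbed from 15 to 2880 IU. Corpora lutea were taken at laparotomy on luteal days 10, 12, 15 and 18, which was 1, 3, 6 or 9 days into the hCG regimen, and 4 untreated corpora lutea of luteal day 10 served as the baseline. Each of the 5 groups held 4 corpora lutea, with 1 Affymetrix array for each. The labels used here give no allele, strain or age, and leave unsaid whether each corpus luteum had a donor of its own. All p-values below therefore measure the spread between these samples. Luteal age, days of hCG and dose rise together in the day 12, 15 and 18 groups, whose only untreated counterpart is 2 or more days younger, so their parts in a difference cannot be told apart.

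Integrins are pairs of an alpha and a beta subunit that bind matrix proteins such as collagen, laminin and fibronectin, or counter-receptors on other cells. Cadherins join like cells at adherens junctions, claudins form the strands of tight junctions, and connexins form the channels of gap junctions. The corpus luteum is built of steroid-producing luteal cells threaded by a very dense capillary bed, so junctions of luteal cells and of endothelium are both present in a whole extract. In such an extract, fewer cells of a type and less RNA per cell cannot be told apart.

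The deposited signals are intensities that share a trimmed mean of 200.01 to 200.02 per array, with array medians of 31.6 to 46.4. The summed signal of the 5 luteal cell markers measured (of 8 listed) lay between 39770 and 65320 on the 20 arrays, and STAR, which carries cholesterol into the mitochondria, averaged 14900 ± 1870 in the untreated group (SD, n = 4). Signals were analysed as log2(signal + 16), a scale on which changes of dim genes are understated. A gene was called at an adjusted p under 0.05 in limma, adjusted over all 52707 probe sets, and every adjusted p below is of this kind. On the third principal component 3 arrays lay at -54.8 to -50.2 (replicate 2 of the untreated group, replicate 1 of hCG day 12 and replicate 2 of hCG day 15), against -4.8 to 23.6 for the others. Of the members' calls against untreated day 10 given below, CLDN3 on day 15 and CDH26 on days 15 and 18 were lost without these arrays, with adjusted p-values of 0.092, 0.115 and 0.0632. Of the other genes named below, the F test calls of TJP1, DSP, COL1A1, COL6A3, C1QC and KRT8 were lost without them too.

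Signal was above the array median on all 20 arrays for 32 members and below it on all 20 for 35 members. The bright 32 included 9 protocadherins, 6 integrin alpha subunits, 5 claudins, 4 cadherins, 3 connexins and 3 integrin beta subunits. The dim 35 included 11 cadherins, 10 claudins and 7 connexins, and no detection calls were at hand to say whether they were expressed. GJA1, the main connexin of the ovary, CDH2, CLDN11, ITGA5 and ITGAX were not analysed here. Because many protocadherins share long stretches of sequence, and 3 probe sets with several symbols were left out, values of single clustered protocadherins are uncertain.

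Few of these genes passed a test. The F test over the 5 groups called 3 of 89 members, ITGA2, CLDN3 and CDH26, or 15 at an unadjusted p under 0.05. Over all 14132 genes it called 7.01%, and 22.9% had an unadjusted p under 0.05 (members, 16.9%). After 1 day of hCG no member was called against untreated day 10, with 9 at an unadjusted p under 0.05. Over all genes 1.12% were called higher and 0.425% lower, and 14.6% had an unadjusted p under 0.05 (members, 10.1%). After 3 days no member was called either, with 10 at an unadjusted p under 0.05 (11.2%, beside 11% of all genes). Of all genes 0.262% were called higher and 0.191% lower. After 6 days 1 member was higher and 2 were lower (all genes, 0.969% higher and 0.998% lower). After 9 days 1 member was higher and 3 were lower (all genes, 2.78% higher and 3.31% lower). The median log2 change of the members stayed between -0.05 and -0.03 in these 4 comparisons, and that of all genes between -0.03 and -0.01.

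Between hCG days, day 12 against day 10 gave 1 member lower and none higher, where 0.601% of all genes were lower and 0.12% higher. Day 18 against hCG day 10 gave 2 members higher and 4 lower, where 2.87% of all genes were higher and 5.09% lower. Median-centring of the arrays gave 1 higher and 5 lower there, and quantile normalisation gave 3 higher and 4 lower. The steps from day 12 to 15 and from day 15 to 18 called 0% of all genes in either direction and no member. At an unadjusted p under 0.05 these steps held 6 and 7 members (6.74% and 7.87%), beside 6.54% and 8.45% of all genes. In all, 82 members were not called in any test, among them all 10 connexins and all 8 integrin beta subunits.

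**Figure D1:**
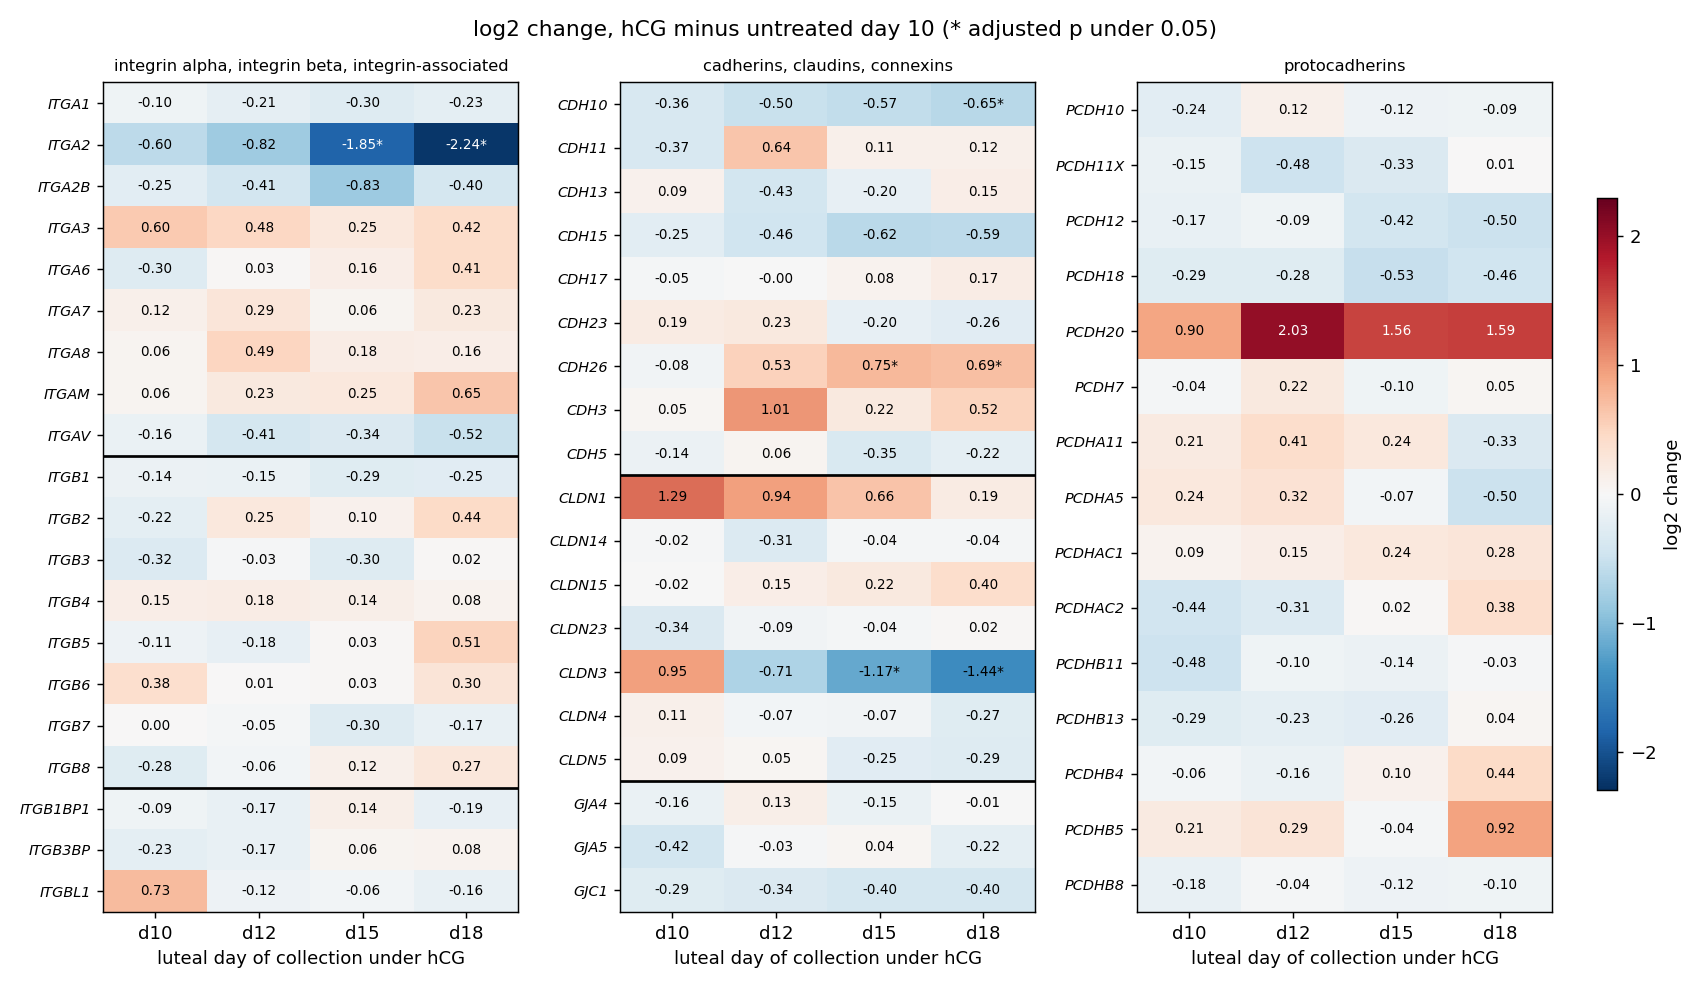
Log2 change against untreated day 10 (colour and printed number) after hCG on luteal days 10, 12, 15 and 18, for the 54 members that exceeded the array median on 1 or more arrays, grouped by family with black lines. Asterisks mark an adjusted p under 0.05 in limma, and sit only on ITGA2, CLDN3, CDH26 and CDH10.

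ITGA2, the alpha subunit that pairs with beta 1 to bind collagen, was the integrin with the largest change. Its 4 arrays read 803, 973, 1003 and 1052 in the untreated group. They read 795, 562, 730 and 461 on hCG day 10 and 484, 702, 443 and 528 on hCG day 12. They read 192, 200, 465 and 228 on hCG day 15 and 226, 237, 211 and 112 on hCG day 18. Every array of each hCG group lay below every untreated array, and every day 18 array also lay below every hCG day 10 array. The fall was 1.85 ± 0.26 on the log2 scale on day 15 (SE, adjusted p = 0.00103, limma) and reached 4.72-fold on day 18 (log2 change -2.24 ± 0.26, adjusted p = 4.53e-05, limma). On days 10 and 12 the log2 changes were -0.60 and -0.82, with adjusted p-values of 0.347 and 0.244. Day 18 was also lower than hCG day 10, by a log2 difference of -1.64 ± 0.26 (adjusted p = 0.000685, limma). A second, dimmer ITGA2 probe set fell by 1.42 ± 0.26 on the log2 scale on day 18 (adjusted p = 0.00295, limma). On day 15 it fell by 1.14 (adjusted p = 0.0306, limma).

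ITGA6, the laminin-binding alpha subunit, went the other way between the first and the last hCG day. Its signals were 4412, 4395, 2575 and 3508 on hCG day 10, 4379, 4722, 4241 and 5092 on hCG day 12, and 5223, 5192, 4098 and 5680 on hCG day 15. On hCG day 18 they were 6385, 5391, 5576 and 6740, while untreated corpora lutea read 4067, 4428, 5157 and 4404. All 4 day 18 arrays thus exceeded all hCG day 10 arrays and all untreated arrays. The difference between day 18 and hCG day 10 was 0.72 ± 0.16 on the log2 scale (1.65-fold, adjusted p = 0.00977, limma). That between day 18 and untreated day 10 was 0.41 ± 0.16 and was not called (adjusted p = 0.179, limma). Of 3 further ITGA6 probe sets, the brightest was called in both comparisons, at 0.91 ± 0.16 (adjusted p = 0.00202) against hCG day 10 and 0.62 ± 0.16 (adjusted p = 0.0343) against untreated day 10. The other 2 were not called, with log2 changes of 0.91 and 0.31 against hCG day 10.

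The other integrin alpha subunits did not pass any test. ITGA1, a second collagen-binding alpha subunit, averaged 358 ± 91 on hCG day 18 and 418 ± 60.8 in untreated corpora lutea (SD, n = 4 each). The log2 change was -0.23 ± 0.22, with a 95% interval from -0.69 to 0.23. Its 4 probe sets did not move alike: MmuSTS.2917.1.S1_s_at, with a mean signal of 83, fell by 0.87 ± 0.16 on the log2 scale on day 18 (adjusted p = 0.00268, limma), although it is not the probe set chosen by the rule. ITGAV, the alpha subunit of the vitronectin receptors, averaged 135 ± 48.3 on day 18 and 194 ± 38.3 in untreated samples, with a log2 change of -0.52 (95% interval -1.11 to 0.08). ITGA2B, ITGA3, ITGA7 and ITGA8 had log2 changes of -0.40, 0.42, 0.23 and 0.16 on day 18, and ITGA11 was below the array median throughout.

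ITGB1, the beta subunit shared by most matrix-binding integrins and the partner of ITGA2, passed no test. Its signal was 3671, 2644, 3283 and 2851 on hCG day 18, against 4211, 3820, 3447 and 3318 in untreated corpora lutea, and the groups overlapped. The log2 change was -0.25 ± 0.22, with a 95% interval from -0.72 to 0.21 (adjusted p = 0.676, limma). ITGB5, which pairs with ITGAV, read 1251, 1782, 1257 and 1604 on day 18, against 1062, 857, 1151 and 1025 in untreated samples. All 4 day 18 arrays lay above the untreated ones, but the log2 change of 0.51 ± 0.18 was not called (adjusted p = 0.148, limma). Against hCG day 10 the ITGB5 difference was 0.62 ± 0.18 (adjusted p = 0.0566), and its second probe set passed at 0.90 ± 0.21 (adjusted p = 0.0145, limma). ITGB3, the platelet and vascular beta subunit, stayed dim at 42.6 ± 19.6 on day 18 and 41.2 ± 14.4 in the untreated group (SD, n = 4 each). Of 4 platelet markers 0 were called by limma, or 0 at an unadjusted p under 0.05 in the F test (all genes, 22.9%). GP9 was near 0, at 13.4 ± 5.98 on day 18 and 11.3 ± 5.61 in untreated samples. The day 18 log2 changes of ITGB4, ITGB6, ITGB7 and ITGB8 were 0.08, 0.30, -0.17 and 0.27, none called.

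Leukocyte integrins were read beside markers of the cells that carry them. ITGB2, the beta subunit of leukocyte integrins, gave 555, 358, 566 and 266 on hCG day 18 and 229, 242, 324 and 249 on hCG day 10. Untreated corpora lutea gave 347, 415, 240 and 243. The groups overlapped, and neither the log2 difference of 0.65 ± 0.22 from hCG day 10 (adjusted p = 0.106, limma) nor that of 0.44 from untreated day 10 (adjusted p = 0.368, limma) was called. ITGAM, its myeloid partner, was dim at 33.6 ± 10.1 on day 18 and 16.3 ± 8.59 in untreated samples, a log2 change of 0.65 ± 0.24 (adjusted p = 0.169, limma). Of 9 measured myeloid markers, 7 were called higher on day 18 than on hCG day 10, with a median log2 difference of 1.14 (all genes, 2.87% called higher). Against untreated day 10, 2 of the 9 were called higher on day 18, with a median log2 change of 0.89 (all genes, 2.78% called higher). The F test called 2 of the 9 (all genes, 7.01%), or 8 at an unadjusted p under 0.05 (all genes, 22.9%). Their summed signal ran from 10790 to 22410 on day 18, 5632 to 7414 on hCG day 10, and 4730 to 11210 in untreated samples. CSF1R, the receptor for the macrophage growth factor, averaged 731 ± 146 on day 18 and 358 ± 138 in the untreated group, a rise of 1.06 ± 0.23 on the log2 scale (adjusted p = 0.0121, limma). C1QC, a complement subunit made by macrophages, rose by 1.08 ± 0.28 on the same scale (adjusted p = 0.0354, limma). Their F test calls were lost when any of 2 arrays (CSF1R) or 9 arrays (C1QC) was left out. That of C1QC was also lost in 3 other alternatives (adjusted p up to 0.0784, limma). Of 7 lymphocyte markers 1 was called higher on day 18 than on hCG day 10 (all genes, 2.87%). It was PTPRC, a surface phosphatase of all leukocytes (log2 difference 1.36 ± 0.36, adjusted p = 0.0306, limma). The part of these cells in the integrin signals was not tested.

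**Figure D2:**
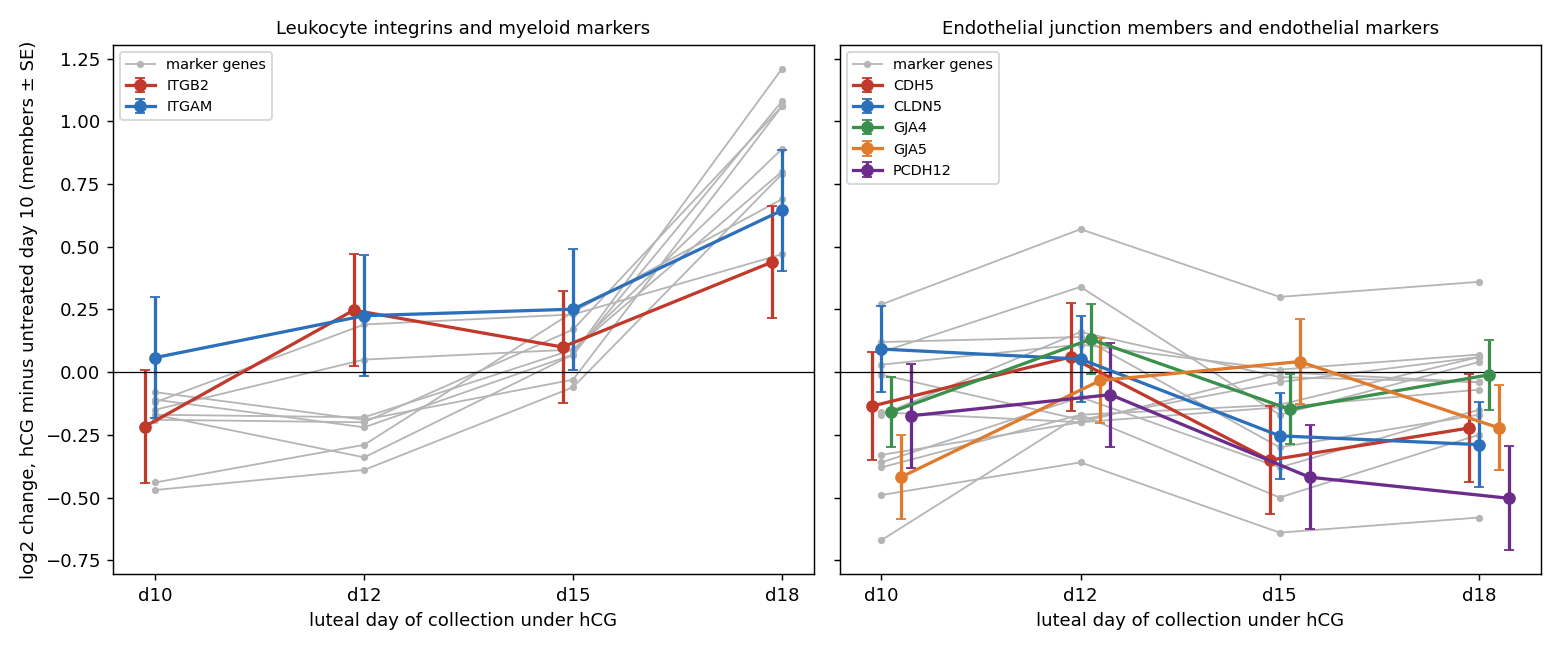
Log2 change against untreated day 10 after hCG on luteal days 10 to 18, for 2 leukocyte integrins beside 9 myeloid markers (left) and 5 endothelial junction genes beside 12 endothelial markers (right). Coloured points are members with SE bars and grey lines are single marker genes. On day 18 all 9 myeloid markers lie above 0, while the endothelial markers lie on both sides (5 above, 7 below). The 5 endothelial junction genes lie below 0 on day 18, from -0.50 (PCDH12) to -0.01 (GJA4), and none was called.

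Among the integrin-associated proteins, ITGBL1 was high on hCG day 10 alone. It read 84.9, 91.6, 115 and 93.5 on hCG day 10, above every array of the other 4 groups. On hCG days 12, 15 and 18 the ranges were 40.9 to 54.1, 25.6 to 66.6 and 37.0 to 63.7, and the untreated range was 29.6 to 70.1. The rise on hCG day 10 over untreated day 10 was not called (log2 change 0.73 ± 0.21, adjusted p = 0.129, limma). Day 18 was lower than hCG day 10 by a log2 difference of -0.89 ± 0.21 (adjusted p = 0.0172, limma). That call was lost without hCG day 10 replicate 3, day 18 replicate 2 or day 18 replicate 3, with adjusted p-values of 0.0613, 0.0509 and 0.0542. ITGB1BP1, which binds the beta 1 tail, averaged 1544 ± 76.5 on day 18 and 1762 ± 117 in untreated samples, with a log2 change of -0.19 (95% interval -0.45 to 0.08). ITGB3BP, a nuclear protein first found by its binding to beta 3, had a log2 change of 0.08 ± 0.19.

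**Figure D3:**
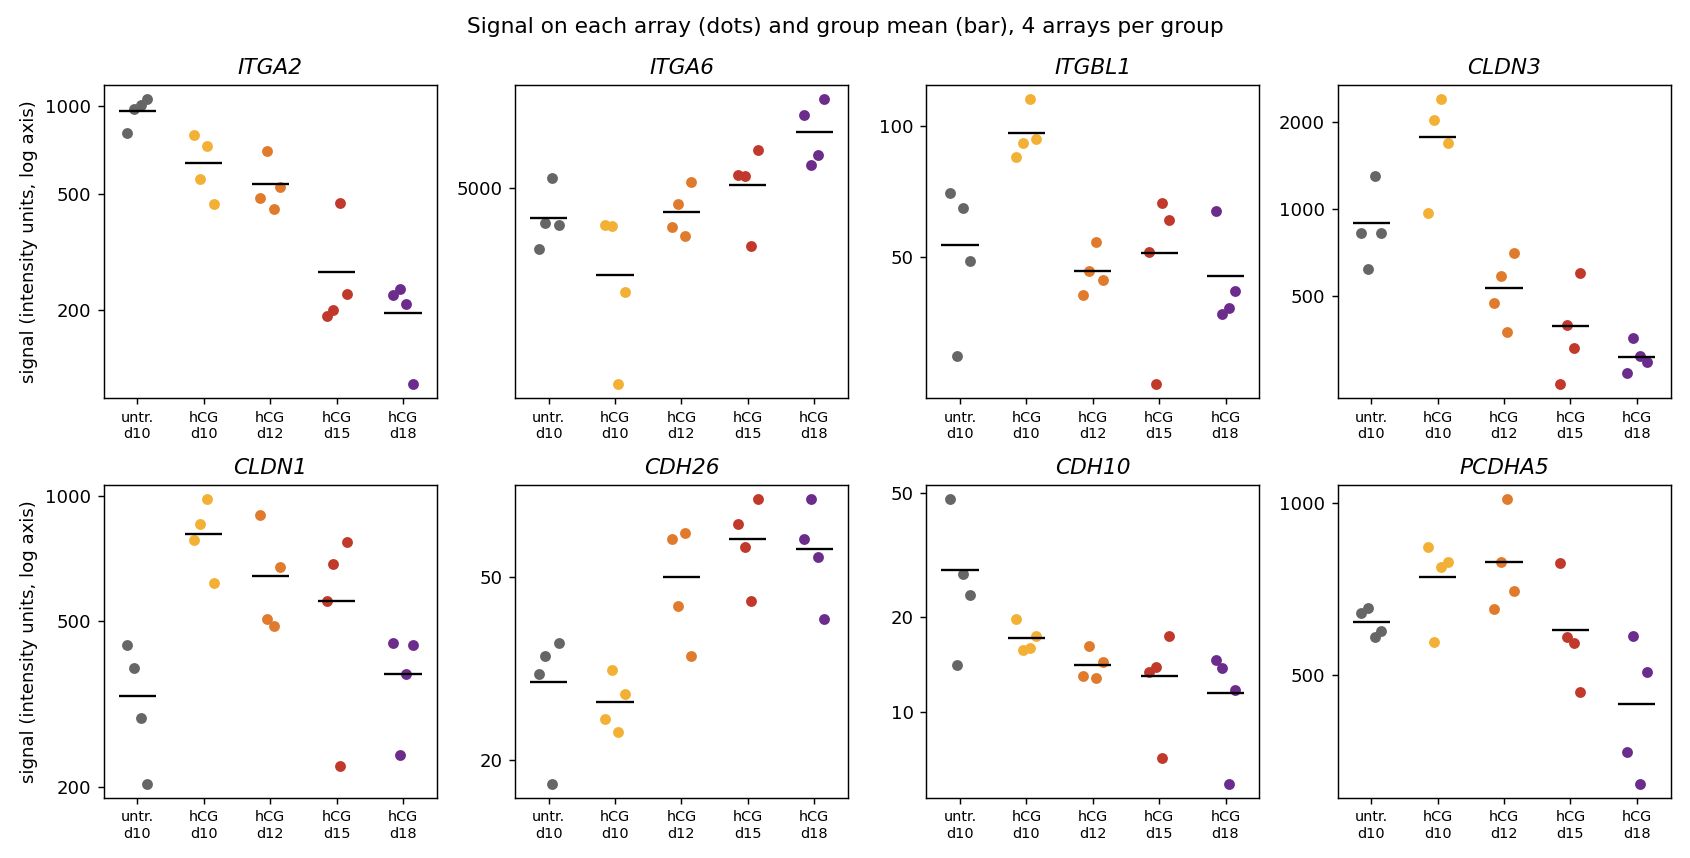
Signal of 8 members on each array (dots, log axis in intensity units, 4 arrays per group) with the arithmetic group mean (bar), from untreated luteal day 10 to hCG day 18. ITGA2 and CLDN3 are lowest on hCG day 18, CLDN3, CLDN1 and ITGBL1 peak on hCG day 10, and the mean of CDH26 is higher on hCG days 12 to 18 than in both day 10 groups.

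Claudins held the second large change. CLDN3, a claudin that seals epithelial tight junctions, read 828, 622, 1304 and 829 in untreated corpora lutea and 972, 2020, 2392 and 1689 on hCG day 10. On hCG day 12 it read 474, 585, 377 and 707. On hCG day 15 it read 249, 397, 332 and 601, and on hCG day 18 it read 271, 359, 310 and 296. Its arrays on hCG day 10 overlapped the untreated ones at the lowest value, and all arrays of days 12, 15 and 18 lay below all of hCG day 10. The rise on hCG day 10 was 0.95 ± 0.28 on the log2 scale and was not called (adjusted p = 0.144, limma). Day 12 was 3.15-fold lower than hCG day 10 (log2 difference -1.66 ± 0.28, adjusted p = 0.00794, limma), and day 18 was 5.24-fold lower than hCG day 10 (-2.39 ± 0.28, adjusted p = 3.97e-05, limma). Against untreated day 10, CLDN3 fell by 1.17 ± 0.28 on day 15 (adjusted p = 0.048, limma) and by 1.44 ± 0.28 on day 18 (adjusted p = 0.00558, limma) on the log2 scale. The day 15 call was lost in 20 of 30 alternative settings, 14 of which left out a single array (adjusted p up to 0.16). A second CLDN3 probe set gave 1.06, -0.68, -0.97 and -1.16 on the 4 days, with day 18 called (adjusted p = 0.046, limma).

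CLDN1, another barrier claudin, was also highest on hCG day 10. It read 783, 856, 984 and 619 there, against 438, 386, 293 and 204 in untreated corpora lutea, and the groups did not overlap. The log2 change of 1.29 ± 0.32 missed the threshold (2.44-fold, adjusted p = 0.0654, limma), and a second probe set gave 1.34 ± 0.35 (adjusted p = 0.0803, limma). It was called in 4 of the alternative settings, among them median-centring and averaging its probe sets. CLDN1 averaged 642 ± 191 on hCG day 12, 561 ± 241 on day 15 and 373 ± 94.9 on day 18 (SD, n = 4 each). Day 18 was 2.15-fold lower than hCG day 10 and also just missed the threshold (log2 difference -1.10 ± 0.32, adjusted p = 0.0521, limma). The second CLDN1 probe set passed in that comparison, at -1.27 ± 0.35 (adjusted p = 0.0387, limma). The chosen probe set passed there in some alternatives, among them median-centring and a variance trend, but not in others, such as quantile normalisation. Unlike CLDN3, its day 18 signals of 443, 239, 373 and 438 overlapped the untreated ones.

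CLDN15, a claudin that lets cations through, averaged 385 ± 73.1 on day 18 and 294 ± 86.4 in untreated samples (SD, n = 4 each). Its log2 change was 0.40 ± 0.19 (adjusted p = 0.318, limma). CLDN4, the other claudin above the array median on every array, had a log2 change of -0.27 on day 18 (adjusted p = 0.538, limma). CLDN5, the claudin of endothelial tight junctions, is described with the vascular genes. The remaining claudins were below the array median on 15 or more arrays, and none was called.

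**Figure D4:**
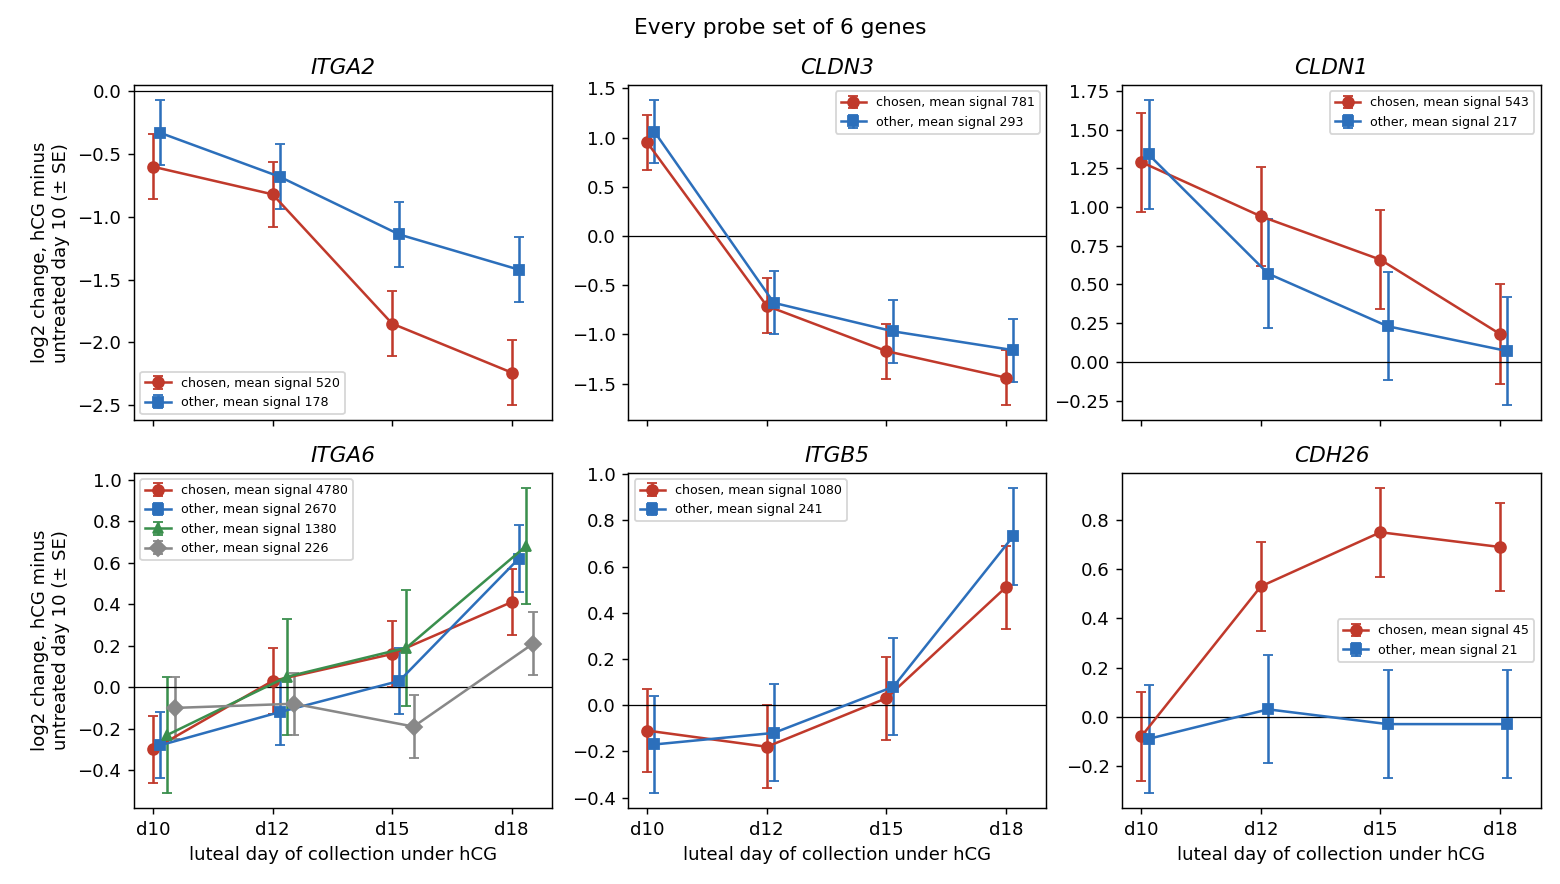
Log2 change against untreated day 10 (± SE) after hCG on luteal days 10 to 18 for every probe set of 6 genes, with the probe set chosen by the rule as red circles and the mean signal in each legend. The probe sets of ITGA2, CLDN3, CLDN1 and ITGB5 run in parallel, and the second one of CDH26 stays near 0. The dimmest of 4 for ITGA6 changes least on days 10 and 18, and lies below 0 on day 15, where the others lie above.

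Epithelial markers were read beside the claudins. Of 7, 1 was called in the F test (all genes, 7.01%). It was KRT8, a keratin of simple epithelia (adjusted p = 0.0468, limma), at 126 ± 49 in untreated samples and 108 ± 34 on hCG day 10. Its later means were 34.1 ± 35.5 on day 12, 22 ± 20.4 on day 15 and 35.9 ± 35.3 on day 18 (SD, n = 4 each). Leaving out any of 16 arrays ended that call, as did 2 other alternatives (adjusted p up to 0.164, limma). The list did not fall as KRT8 did. On day 18, 6 of its 7 log2 changes against untreated day 10 were above 0 and 1 was below, with a median of 0.06 (all genes, -0.03). EPCAM, an epithelial surface protein, lay near 0 in all groups, at 6.97 ± 5.45 on day 18 and 1.89 ± 2.27 in untreated samples. Summed epithelial marker signal was 780 to 833 on day 18, 672 to 1077 on hCG day 10 and 557 to 821 in the untreated group. Its part in the CLDN3 values was not tested. The steroidogenic enzyme HSD3B2 fell too, by 1.83 ± 0.21 on the log2 scale on day 18 (adjusted p = 4.44e-05, limma). The other 4 luteal markers were not called, and all 4 lay above 0 on day 18. Over all genes 3.31% were called lower on that day.

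Of the tight junction partners, 11 of 16 listed genes were measured. The F test called 2 of the 11 (all genes, 7.01%), or 5 at an unadjusted p under 0.05 (all genes, 22.9%). CXADR, an adhesion receptor at tight junctions, averaged 335 ± 67 in untreated corpora lutea and 572 ± 264 on hCG day 10. It then averaged 193 ± 37.6 on day 12, 126 ± 38.3 on day 15 and 187 ± 19.3 on day 18 (SD, n = 4 each). Like CLDN3, it was highest on hCG day 10. Against untreated day 10 that log2 change was 0.63 ± 0.27 and was not called (adjusted p = 0.352, limma). CXADR fell by 1.33 ± 0.27 on the log2 scale on day 15 against untreated day 10 (adjusted p = 0.0184, limma). On day 18 it was lower than on hCG day 10 by a log2 difference of -1.41 ± 0.27 (adjusted p = 0.00419, limma). TJP1, a scaffold under the tight junction strands, ran the other way between these days. It was lowest on hCG day 10, at 1940 ± 579, and highest on day 18, at 3560 ± 436 (log2 difference 0.91 ± 0.18, adjusted p = 0.00469, limma). Against untreated day 10 neither was called. The log2 changes were -0.72 on hCG day 10 and 0.18 on day 18 (adjusted p = 0.0649 and 0.719, limma). The F test call of TJP1 (adjusted p = 0.0274, limma) was lost without any of 4 arrays. It was also lost in 4 other alternatives, among them median-centring and the mean over its probe sets (adjusted p up to 0.0711, limma). F11R, a junctional adhesion molecule named here because of its value, rose by 1.27 ± 0.29 on day 18 against untreated day 10 (adjusted p = 0.0182, limma). The list's median log2 change on day 18 was -0.11, beside -0.03 for all genes. Its summed signal was 7810 to 10350 on day 18 and 6053 to 7433 in untreated samples, without overlap. TJP1 and F11R, the brightest of the list, weigh most in that sum.

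The cadherins with calls were dim. CDH26, known in humans from epithelium in allergic inflammation, read 30.9, 33.7, 17.8 and 35.9 in untreated corpora lutea and 24.6, 31.4, 23 and 27.9 on hCG day 10. It read 60.7, 43.4, 62.4 and 33.7 on hCG day 12, 65.3, 58.4, 44.5 and 74.1 on day 15, and 60.7, 74.0, 55.3 and 40.6 on day 18. All arrays of days 15 and 18 lay above all arrays of both day 10 groups. The log2 rise against untreated day 10 was 0.75 ± 0.18 on day 15 (1.69-fold, adjusted p = 0.0447, limma) and 0.69 ± 0.18 on day 18 (1.62-fold, adjusted p = 0.0356, limma). Against hCG day 10 the day 18 rise was 0.77 ± 0.18 (adjusted p = 0.0153, limma). Its second probe set, with a mean signal of 21, gave -0.03 ± 0.22 on both day 15 and day 18. The day 15 call was lost in 20 of 30 alternative settings (14 without a single array, adjusted p up to 0.16) and the day 18 call in 11 (6 without a single array, adjusted p up to 0.132). The call against hCG day 10 was lost without hCG day 10 replicate 3 (adjusted p = 0.0504, limma) or day 18 replicate 2 (adjusted p = 0.0535, limma), with median-centring (adjusted p = 0.0506, limma) and with the mean over its probe sets (log2 difference 0.42, adjusted p = 0.107, limma).

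CDH10, a cadherin best known from neurons, exceeded the array median on 1 array. It read 14.6, 13.8, 5.90 and 11.7 on day 18, against 47.8, 14.1, 27.6 and 23.5 in untreated samples. The groups overlapped, and the call (log2 change -0.65 ± 0.18, adjusted p = 0.0456, limma) was lost in 23 of 29 alternative settings, 17 of them without a single array (adjusted p up to 0.146). No other cadherin was called. CDH11, the cadherin of mesenchymal cells, averaged 780 ± 183 on day 18 and 901 ± 835 in untreated samples (SD, n = 4 each), where 1 array of 2152 stood far above 430, 515 and 506. The log2 change was 0.12 ± 0.46. Of 5 fibroblast markers 1 was called in the F test (all genes, 7.01%) and none in a single comparison. It was COL6A3, a chain of a matrix collagen (adjusted p = 0.0386, limma). The list's median log2 change on day 18 was -0.52. That F test call was lost when any of 13 arrays was left out (adjusted p up to 0.0947, limma), and in 2 other alternatives (adjusted p up to 0.209, limma).

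CDH3, the placental cadherin, showed its largest log2 change on day 12, at 1.01 ± 0.51 (adjusted p = 0.503, limma), with signals of 391, 423, 287 and 414 against 156, 97.0, 137 and 466 in untreated samples. CDH23, known from the tip links of hair cells, averaged 555 ± 55.4 on day 18 and 759 ± 65 on hCG day 10, without overlap. The log2 difference of -0.44 ± 0.14 was not called (adjusted p = 0.0844, limma). CDH13, a cadherin anchored by a lipid, averaged 36.2 ± 4.89 on day 18 and 31.2 ± 7.56 in untreated samples. CDH1, the epithelial cadherin, lay far below the array median on all arrays, between 1.20 and 13.8.

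Of the intracellular partners of the cadherins, 0 of 12 measured catenins, nectins and linked phosphatases (of 15 listed) were called by limma in the F test, or 1 at an unadjusted p under 0.05 (all genes, 22.9%). Their summed signal was 5469 to 6151 on day 18 and 6263 to 7233 in untreated samples, without overlap. It was already 5456 to 5941 on hCG day 10, then 6378 to 7124 on day 12 and 5373 to 6579 on day 15. Bright genes such as CTNNA1 (mean 1800 in untreated samples) and AFDN (1630) weigh most in that sum. On day 18, 11 of 12 log2 changes were below 0 with a median of -0.20, and none was called. Over all genes 7705 of 14132 were below 0, with a median of -0.03. Below 0 were also 10 of the 12 on hCG day 10 (all genes, 7184 of 14132), 7 on day 12 (7335) and 10 on day 15 (7815). Of 11 measured desmosome genes 1 was called lower on day 18 (all genes, 3.31%). It was DSP, which links desmosomes to keratin, with a fall of 1.49 ± 0.35 on the log2 scale (adjusted p = 0.0215, limma). It averaged 98.8 ± 49.4 on day 18 and 294 ± 90.9 in untreated samples. Its call in the F test (adjusted p = 0.0366, limma) was lost when any of 12 arrays was left out, and in 2 other alternatives (adjusted p up to 0.0784, limma).

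Protocadherins, which are best known from neurons, included several bright probe sets here. PCDHA5 read 366, 586, 323 and 505 on hCG day 18 and 838, 571, 773 and 789 on hCG day 10. The groups overlapped by 1 array, and the log2 difference was -0.74 ± 0.19 (1.67-fold lower, adjusted p = 0.0275, limma). The call was lost without replicate 1, 3 or 4 of hCG day 10 or replicate 1 or 3 of day 18 (adjusted p up to 0.0992, limma), and the mean over its probe sets gave -0.05. Against untreated day 10, with 642, 655, 583 and 597, the log2 change was -0.50 ± 0.19 (adjusted p = 0.183, limma). Its other 5 probe sets, all dimmer, gave log2 differences of -0.37 to 0.68 from hCG day 10, and none was called. PCDHA11 had a like profile, at 903 ± 121 on day 18 and 1337 ± 342 on hCG day 10 (log2 difference -0.54 ± 0.19, adjusted p = 0.123, limma). PCDHAC1 averaged 1477 ± 164 on day 18 and 1208 ± 107 in untreated samples, a log2 change of 0.28 ± 0.13 (adjusted p = 0.265, limma).

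On days 12, 15 and 18 PCDH20 had the largest positive log2 change of all members against untreated day 10, and it had the largest SE. It read 11.3, 37.8, 17.4 and 25.5 in untreated corpora lutea. It read 23.8, 199, 44.3 and 31.9 on hCG day 10 and 122, 173, 200 and 83.9 on hCG day 12. On day 15 it read 96.3, 44.0, 30.8 and 476, and on day 18 it read 51.1, 97.1, 107 and 163. All day 12 and day 18 arrays exceeded all untreated arrays. The log2 changes of 2.03 ± 0.59 on day 12 and 1.59 ± 0.59 on day 18 were not called (adjusted p = 0.198 and 0.169, limma), and their 95% intervals ran from 0.78 to 3.27 and from 0.35 to 2.83.

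No vascular member passed a test. CDH5, the cadherin of endothelial adherens junctions, read 1646, 2126, 1301 and 1565 on hCG day 18, against 1922, 2049, 1964 and 1719 in untreated corpora lutea. The log2 change was -0.22 ± 0.22, with a 95% interval from -0.68 to 0.23. CLDN5 averaged 244 ± 51.1 on day 18 and 297 ± 20.7 in untreated samples (log2 change -0.29, 95% interval -0.65 to 0.07). PCDH12, an endothelial protocadherin named here for its cell type, had the largest change of the vascular group, at -0.50 ± 0.21 on the log2 scale, and was not called (adjusted p = 0.226, limma). Of 12 endothelial markers, 0 were called by limma in the F test, or 1 at an unadjusted p under 0.05 (all genes, 22.9%). Their summed signal was 8512 to 9886 on day 18 and 8525 to 9553 in untreated samples. On hCG day 10, SOX17, an endothelial transcription factor, was the 1 marker called lower (log2 change -0.67 ± 0.16, adjusted p = 0.0472, limma). Over all genes 0.425% were called lower in that comparison.

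No connexin was called in any comparison, and 3 of 10 were above the array median. GJA5, a connexin of arterial endothelium, read 363, 530, 550 and 513 on hCG day 10, against 610, 729, 713 and 566 in untreated corpora lutea. All hCG day 10 arrays lay below all untreated arrays, and the log2 change of -0.42 ± 0.17 was not called (adjusted p = 0.309, limma). On day 18 its log2 change was -0.22 ± 0.17. GJA4, a connexin of endothelium and of the oocyte surface, averaged 226 ± 38.3 on day 18 and 226 ± 19.2 in untreated samples, with a 95% interval of the log2 change from -0.30 to 0.28. GJC1, a connexin of smooth muscle and the conduction system, averaged 185 ± 30.8 on day 18 and 251 ± 44.4 in untreated samples (log2 change -0.40 ± 0.21, adjusted p = 0.386, limma). Of 6 pericyte and smooth muscle markers 0 were called by limma in the F test, or 3 at an unadjusted p under 0.05 (all genes, 22.9%). Their summed signal was 6260 to 7322 on day 18 and 6125 to 7201 in untreated samples. Of 8 measured pannexins and other connexin relatives, none was called by limma in the F test, or 2 at an unadjusted p under 0.05 (all genes, 22.9%). PANX1, which forms channels to the outside of the cell, had a log2 change of -0.22 on day 18. CCN3, a secreted matrix protein, was the 1 gene of the 8 called higher on day 18 than on hCG day 10 (all genes, 2.87%). It averaged 99.3 ± 43.6 on day 18 and 43.9 ± 17.9 on hCG day 10 (SD, n = 4 each). The log2 difference was 0.92 ± 0.25 (adjusted p = 0.0413, limma).

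On the cytoplasmic side of the integrins, 23 of 24 listed focal adhesion genes were measured and 1 was called in the F test (all genes, 7.01%). At an unadjusted p under 0.05 there were 6 (all genes, 22.9%). TLN2, a talin that couples integrin tails to actin, averaged 155 ± 21.7 in untreated samples and 136 ± 19.9 on hCG day 10. It then averaged 280 ± 84.4 on day 12, 298 ± 50.7 on day 15 and 340 ± 65.1 on day 18 (SD, n = 4 each). It rose by 0.88 ± 0.19 on the log2 scale on day 15 (adjusted p = 0.0232, limma) and by 1.06 ± 0.19 on day 18 (adjusted p = 0.0026, limma). FERMT3, the kindlin of blood cells, named here because of its value, was called higher on day 18 than on hCG day 10 (log2 difference 0.93 ± 0.22, adjusted p = 0.0178, limma). In that comparison 2 of the 23 were called higher (all genes, 2.87%).

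Of the integrin ligands, 14 of 18 were measured, with a median log2 change of -0.40 on day 18 beside -0.03 for all genes. The F test called 2 of the 14 (all genes, 7.01%), or 6 at an unadjusted p under 0.05 (all genes, 22.9%). FN1, fibronectin, fell by 0.91 ± 0.22 on the log2 scale, to 2430 ± 266 on day 18, against 4680 ± 1230 in untreated samples (adjusted p = 0.0249, limma). Its F test call was lost when any of 5 arrays was left out. It was also lost with a pseudocount of 1, with the replicate block and with the mean over its probe sets (adjusted p up to 0.139, limma). COL1A1, a chain of the fibrillar collagen that ITGA2 binds, was called in the F test (adjusted p = 0.0158, limma) but in no single comparison, and that call was lost without the 3 arrays apart on the third component (adjusted p = 0.083, limma). It averaged 1180 ± 357 in untreated samples and 1570 ± 264 on hCG day 10, and then 2430 ± 790 on day 12, 896 ± 237 on day 15 and 873 ± 477 on day 18.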

How the data were processed

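For each array the authors deposited an intensity on a linear scale for every probe set, made in the GCOS software per the submitters' processing notes; its version is not given in the sources used here. Tested on the table, all arrays share a 2% trimmed mean. Of 52865 probe sets, 158 controls were left out and 52707 tested; 24956 carry 1 symbol in the platform annotation, 361 several and 27390 none. The 89 members had 161 probe sets, and 41 members had several.

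The log2 of each deposited intensity plus 16 was fitted with 1 mean per group over 20 arrays in limma 3.58.1 (R 4.3.3, eBayes, Benjamini-Hochberg over all probe sets), with no further scaling or filter. The script was tested on simulated data. Precision is limited by the number of arrays, since arrays have no depth. Errors are SE for log2 changes and SD for signals.

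Named were called members, the 3 brightest and the most changed bright member per family, preset anchors (16 of 21 measured), and list genes called by the F test. The members and lists were chosen with earlier results of these data known. Deviations of same-numbered replicates of different groups correlated at -0.28 to 0.36, with a median of 0.03 over 40 pairs, 14 of them above 0.1. For replicates of other numbers the median was -0.02. The labels state no pairing, and these correlations cannot decide whether the numbers pair samples. Alternatives were scaling, pseudocounts, a filter on dim probe sets, a variance trend, a replicate block, the mean over probe sets, the compared arrays alone, and leaving out arrays. Sequences and genome positions were not used here.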

Additional observations from a re-analysis of the deposited data

Results flagged for a closer look

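In groups of 4 arrays, 11 members' groups of 155 checked held an array that stood apart from the other 3, where chance gives about 1 in 20, or 7.8. In untreated corpora lutea, CDH11 read 2150 in replicate 3 against 430 to 515 in the others, and CDH3 read 466 in replicate 4 against 97.0 to 155. On hCG day 10, ITGB3 read 7.08 in replicate 3 (others 38.8 to 40.1), ITGB5 read 690 in replicate 1 (others 1020 to 1060), PCDH20 read 199 in replicate 2 (others 23.8 to 44.3) and PCDHAC1 read 1120 in replicate 4 (others 1330 to 1340). On hCG day 12, CDH1 read 5.55 in replicate 1 (others 1.20 to 1.44) and PCDHAC1 read 1150 in replicate 3 (others 1390 to 1430). On hCG day 15, ITGA2 read 465 in replicate 3 (others 191 to 228), ITGAM read 30.3 in replicate 2 (others 18.1 to 19.2) and PCDH20 read 476 in replicate 4 (others 30.8 to 96.3).

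Signals differed between hCG collection days, which differ in luteal age and days of hCG together, for 7 gene and day pairs in limma. CLDN3 differed between day 12 and hCG day 10, with a log2 difference of -1.66. Between day 18 and hCG day 10 the log2 differences were 0.77 for CDH26, -2.39 for CLDN3, -1.64 for ITGA2, 0.72 for ITGA6, -0.89 for ITGBL1 and -0.74 for PCDHA5.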

How the results depend on the processing

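ITGA2 in its 3 called comparisons, and CLDN3 on day 18 against both day 10 groups, kept direction and call in all 30 alternatives run. CLDN3 on day 12 and ITGA6 on day 18, both against hCG day 10, lost the call once, in a fit of the compared arrays alone (adjusted p = 0.108 and 0.0725). No call changed direction. The F test called 5 members with a pseudocount of 64, 7 in the upper 50% of probe sets and 5 with the mean over probe sets (CDH26 lost, adjusted p = 0.158), and 3 to 6 without single arrays. Against untreated day 10, day 10 called 1 (CLDN1) with median-centring, in the upper 50% and with the mean over probe sets, and 0 to 1 without single arrays. Day 15 called 1 with a pseudocount of 1, with the mean over probe sets and with the compared arrays alone, and 1 to 3 without single arrays. Day 18 called 2 with a pseudocount of 1 and with a variance trend, and 2 to 4 without single arrays. Against hCG day 10, day 12 called 2 with a pseudocount of 64 and without the 3 arrays apart on the third component. It called 0 with the compared arrays alone and 1 to 2 without single arrays. In the fit of all arrays 8 members (8.99%) passed this comparison unadjusted, beside 10.1% of all genes. Against the same reference, day 18 called 3 to 9 without single arrays, with 3 when hCG day 10 replicate 3 was left out. ITGBL1 was lost there without hCG day 10 replicate 3, hCG day 18 replicate 2 or hCG day 18 replicate 3. With the replicate number as a replicate block, day 15 called 2 (CDH26 lost), day 18 against hCG day 10 called 7, and the F test called 4. Median-centring moved the median of all probe sets by 0.12, 0.14, 0.11 and 0.05 on the 4 days against untreated day 10. The causes were not tested.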
